A study of Rattus norvegicus with 3 samples.

Results

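The regions described here are the narrower peaks of the promoter mark H3K4me3 that hold several peaks of the homeodomain transcription factor DLX3. They were chosen by the deposited peak positions themselves: an H3K4me3 peak entered if it was under 4000 bp wide and shared at least 1 bp with 2 or more DLX3 peaks. Of the 25094 H3K4me3 peaks, 849 met this rule. They were 3.63% of the 23362 H3K4me3 peaks under 4000 bp and 5.89% of the 14409 of these that touched any DLX3 peak. Because width and overlap made the choice, these counts are descriptions and carry no test.

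The chromatin came from enamel organ, the epithelium that lays down tooth enamel, taken from lower incisors of adult wild-type rats, with no treatment named. These incisors grow throughout life. There were 3 libraries: 1 of DLX3 chromatin immunoprecipitation (ChIP), 1 of H3K4me3 ChIP and 1 input without antibody, from which no list was used here. With 1 library per antibody there are no replicates, no spread between animals and no test of any difference below. How many animals a library pooled, and their sex, are not given in the sources used here. The titles name DLX3 and H3K4me3, the antibody entries DLX4 and H3K4me4; titles were followed.

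DLX3 is a distal-less homeobox protein that binds short AT-rich elements in DNA and acts in the differentiation of epidermis, hair, placenta, bone and teeth. Inherited DLX3 mutations cause tricho-dento-osseous syndrome, in which the enamel is thin or poorly mineralised. H3K4me3 is written on the nucleosomes flanking active transcription start sites. A region of the mark can span a single start site or several, among them the paired start sites of genes transcribed in opposite directions. The regions below are named by rn5 position, since no rn5 annotation or sequence was in hand.

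Most of the 849 regions held the smallest number of DLX3 peaks that the rule allows. There were 826 with 2 DLX3 peaks (97.3%), 22 with 3 and 1 with 4. Together they touched 1716 distinct DLX3 peaks, 9.76% of the DLX3 peaks on the mark. Their H3K4me3 peaks had a median width of 2811 bp (lowest 650, quartiles 2190 and 3408, highest 3999 bp). H3K4me3 peaks under 4000 bp with 1 DLX3 peak were narrower, with a median of 1924 bp over 13560 regions (quartiles 1383 and 2547 bp). A wider peak has more room for a second DLX3 peak, and the share of DLX3-bearing marked peaks that were members was higher in wider classes, from 0.916% under 1000 bp to 21.9% between 3500 and 4000 bp.

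At the limit of width, the widest member, of 3999 bp, was on chromosome 1 (95703977 to 95707975). After it came 3994 bp on chromosome 10 (95410289 to 95414282), then 3984 bp on chromosome 12 (49025047 to 49029030). Just too wide were 3 regions: 4001 and 4002 bp on chromosome 10 (109725096 to 109729096 and 48357122 to 48361123), and chromosome 6 held the one of 4005 bp (124605774 to 124609778). H3K4me3 scores overlapped across the limit: 3100, 430.0 and 221.5 inside the limit and 1166, 3100 and 3100 outside it. At the limit of overlap, 46 members (5.42%) touched 1 of their DLX3 peaks over less than 50 bp. On the other side of that limit, 70 of the 13560 marked peaks under 4000 bp with 1 DLX3 peak (0.516%) had a second one less than 50 bp past the edge.

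Neighbouring DLX3 peaks in these regions lay close together, and the sequence between them was nearly always shorter than the peaks beside it. The median gap, from the end of a DLX3 peak to the start of the next, was 136 bp over 873 neighbouring pairs (lowest 1, quartiles 57 and 281, highest 1711 bp). The median distance between midpoints was 1475 bp (quartiles 1158 and 1924 bp). In 826 of the 873 pairs (94.6%) the gap was shorter than either DLX3 peak. By the rule the gap lies inside a marked peak under 4000 bp, which favours a high share. This share was not computed for pairs off the mark or in wider marked peaks. A gap under 200 bp was found in 563 pairs (64.5%, 95% Wilson interval 61.3 to 67.6%). Whether such neighbours are separate binding sites or a single wide site that peak calling divided was not tested.

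Neighbouring DLX3 peaks that both lay off the mark, with midpoints under 4000 bp apart, had a gap under 200 bp in 21.3% of 14529 pairs, and their median gap was 840 bp. Both peaks of a member pair had to touch a marked peak under 4000 bp, so the gap lay inside it and was kept short. Classes of midpoint distance do not remove this condition, so their values are a description only. Between 1000 and 1500 bp, 70.6% of 340 member pairs and 41.6% of 2567 pairs off the mark had a gap under 200 bp. Between 2000 and 2500 bp these shares were 52.7% of 112 and 11.2% of 2446. At an equal midpoint distance a shorter gap means wider DLX3 peaks. In marked peaks of 4000 bp or more, where there is more room, 399 of 859 gaps (46.4%) were under 200 bp and the median was 250 bp.

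**Figure D1:**
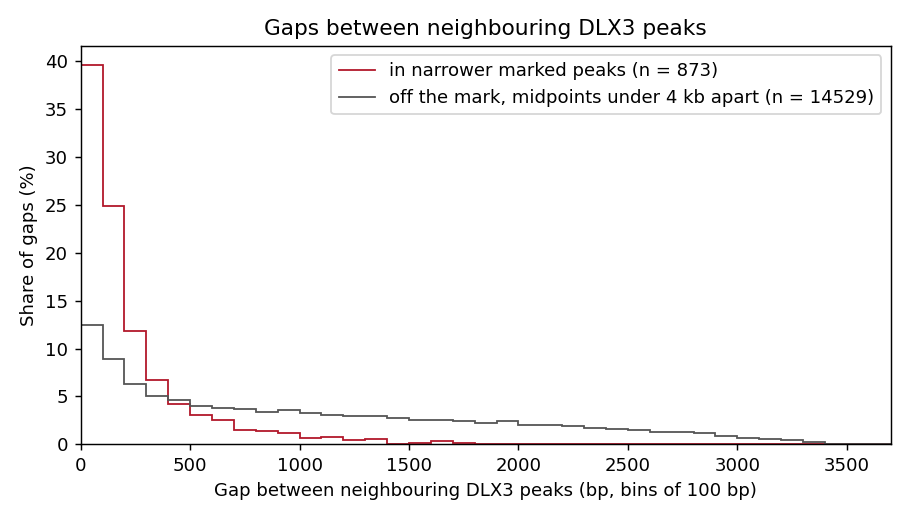
Share of gaps (%) in bins of 100 bp between neighbouring DLX3 peaks, for 873 pairs in narrower marked peaks (red) and 14529 pairs off the mark with midpoints under 4000 bp apart (grey). In the marked peaks 39.6% of gaps were under 100 bp, against 12.4% off the mark.

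The extremes show the range of layouts. The narrowest gaps were 1 bp, in a region on chromosome 10 (58389301 to 58392065) and in one on chromosome 7 (135590494 to 135591614). In the first, a DLX3 peak of 2194 bp with a score of 577.2 lay inside the mark with its midpoint 46.5 bp from the marked centre, and a second of 2396 bp with a score of 215.8 ran 2065 bp past the edge. Gaps of 2 bp were found on chromosome 17 (78831740 to 78834939) and chromosome 7 (11346633 to 11348053), and 1 of 3 bp on chromosome 16 (20275286 to 20277673). The chromosome 17 region differed from the other 4 in that both its DLX3 peaks, with scores of 194.4 and 92.4, lay inside the mark.

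The widest gaps ran from 1523 to 1711 bp. The gap of 1711 bp was on chromosome 7 (12478478 to 12481783), between a DLX3 peak scoring 57.6, which entered the mark from outside, and one scoring 120.8 that lay inside. Chromosome 9 had a gap of 1675 bp (10017500 to 10021375), chromosome 20 one of 1657 bp (49948053 to 49951114), and chromosome 4 one of 1626 bp (187143197 to 187146504). A gap of 1523 bp was on chromosome 8 (62194823 to 62198230). In all 5 regions at least 1 DLX3 peak crossed an edge of the mark, and in those on chromosomes 9 and 4 both did. H3K4me3 scores of the first 4 lay between 1336 and 1746, whereas the chromosome 8 region scored 113.2.

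DLX3 peaks of a pair nearly always took opposite sides of the marked centre. Of the 826 regions with 2 DLX3 peaks, 762 (92.3%, Wilson interval 90.2 to 93.9%) had a midpoint on each side and 64 had both on 1 side. Peaks that do not overlap are pushed apart by their own widths, so a large share is given by the geometry. The midpoint of the gap lay in the inner 50% of the marked peak, measured from centre to edge, in 602 of these regions (72.9%). Its median distance from the marked centre was 379 bp. Taken as a block from first start to last end, a region's DLX3 peaks had a median position near a single DLX3 peak's. The block's midpoint lay at a median of 0.169 of the distance from centre to edge over all 849 regions (upper quartile 0.391). For a single DLX3 peak the median was 0.178 (upper quartile 0.333). These values are relative to the marked peak, which was wider in members by median.

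**Figure D2:**
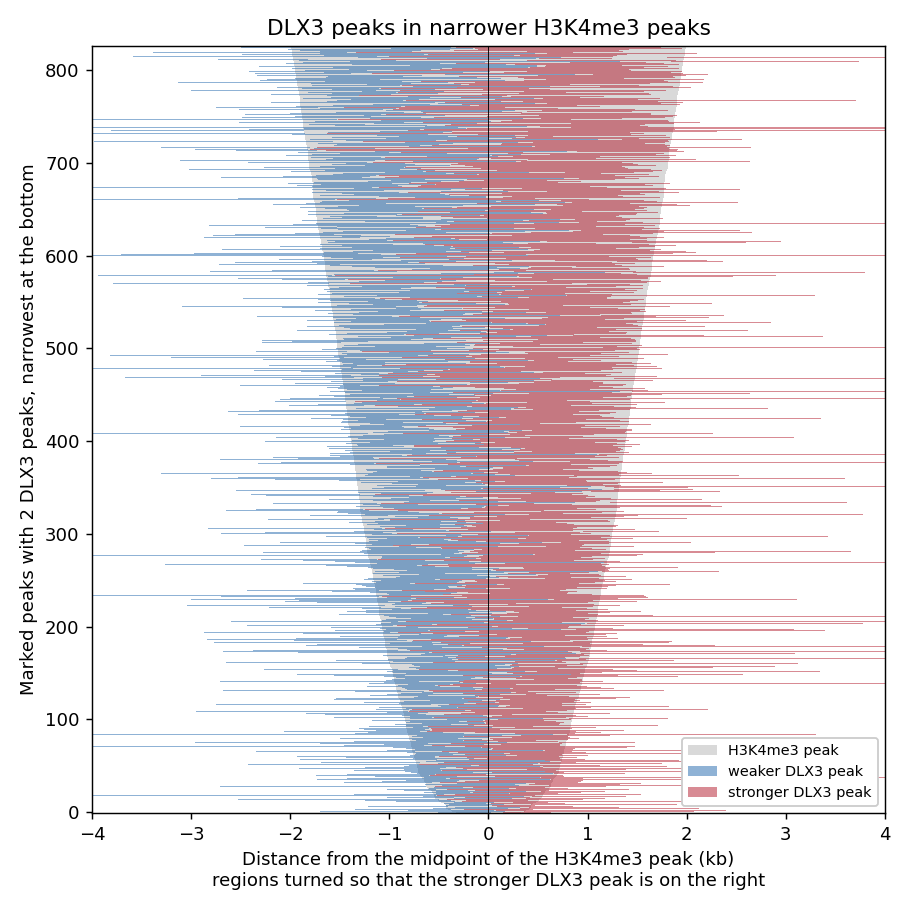
Each row is 1 of the 826 marked peaks with 2 DLX3 peaks, ordered by width, with the H3K4me3 peak in grey and the stronger (red) and weaker (blue) DLX3 peak, against distance in kb from the marked centre. Regions are turned so that the stronger DLX3 peak is on the right, and DLX3 peaks reaching past 4 kb are cut off. The midpoint of the gap between red and blue lies in the inner 50% of the grey in 602 rows.

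The stronger DLX3 peak of a region, by the authors' deposited score, was the more central of the 2 strongest in 518 of 849 regions (61.0%, Wilson interval 57.7 to 64.2%). No region had a tie in score. The weaker peak is taken below as the second strongest. The stronger peak's midpoint fell in the inner 50% of the distance from centre to edge in 473 regions (55.7%), in the outer 50% in 269 (31.7%) and outside the marked peak in 107 (12.6%). For the weaker peak these counts were 296 (34.9%), 374 (44.1%) and 179 (21.1%). The most frequent layout, in 268 regions (31.6%), had the stronger midpoint central and the weaker near an edge. The mirror layout, with the weaker central and the stronger near an edge, was seen in 155 (18.3%), and both were central in 73 (8.60%). Single DLX3 peaks of marked peaks under 4000 bp had their midpoint in the inner 50% in 87.9% of cases. In members, DLX3 peaks that do not overlap must share the mark, which pushes their midpoints off its centre. Their lower shares are thus in part given by the rule.

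Width goes along with this order. The stronger peak was also the wider in 588 regions (69.3%), with a median width of 1393 bp over all regions against 1040 bp for the weaker. Where the stronger peak was the wider, it was the more central in 403 of 588 regions (68.5%). Where it was the narrower, it was the more central in 114 of 258 (44.2%, Wilson interval 38.3 to 50.3%). With the wider peak taken as the stronger, it was the more central in 64.8% of 846 regions. Central position thus goes along with peak width, so 50% is no reference value for these shares or for the 61.0% above. The stronger peak lay toward the higher coordinate in 403 of the 826 regions with 2 DLX3 peaks (48.8%, Wilson interval 45.4 to 52.2%). No strand of transcription was available to orient them.

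**Figure D3:**
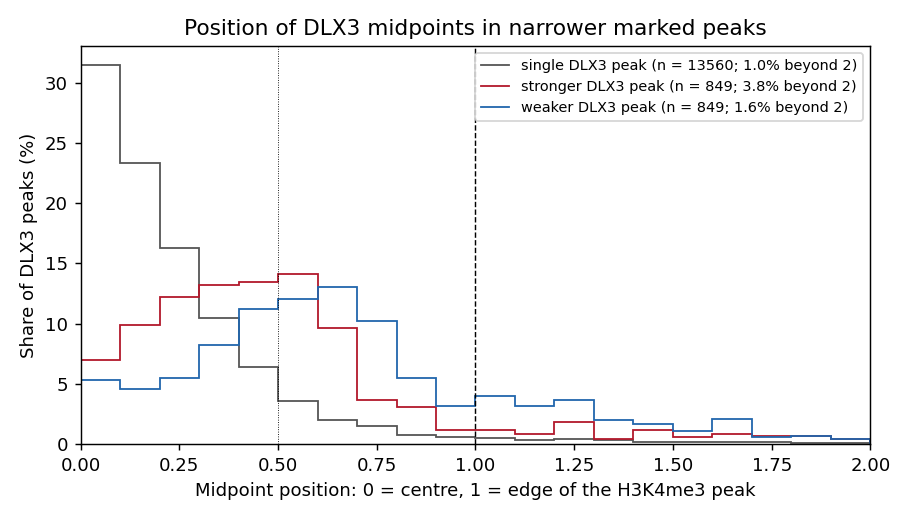
Share of DLX3 peaks (%) by midpoint position, where 0 is the centre and 1 (dashed line) the edge of the H3K4me3 peak and the dotted line marks 0.5; grey is the single DLX3 peak of 13560 marked peaks, red and blue the stronger and weaker DLX3 peak of the 849 regions. Single midpoints gather near 0, stronger midpoints have their median at 0.451 and weaker midpoints at 0.623. The rule itself pushes midpoints in the 849 regions off centre.

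The stronger DLX3 peak lay wholly inside the mark in most regions. It was inside in 531 of 849 (62.5%, Wilson interval 59.2 to 65.7%) and ran past an edge in 318 (37.5%). The weaker peak was inside in 458 (53.9%, Wilson interval 50.6 to 57.3%). Single DLX3 peaks were wholly inside in 63.0% of 13560 marked peaks under 4000 bp, so the share for the stronger peak was near this background. A single peak can cover the whole marked peak, as 1145 of them did. A member's DLX3 peak cannot, because the second must also touch the mark.

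Both of the 2 strongest DLX3 peaks were inside in 310 regions (36.5%), only the stronger in 221 (26.0%), only the weaker in 148 (17.4%) and neither in 170 (20.0%). Among the 369 regions where exactly 1 of them crossed an edge, the stronger was the one inside in 221 (59.9%, Wilson interval 54.8 to 64.8%). The share with the stronger peak inside depended on the width of the marked peak. It was 0% in the 12 regions under 1000 bp, 22.4% from 1000 to 1500 bp and 44.6% from 1500 to 2000 bp. It then went through 54.2%, 69.7% and 70.6% to 79.2% from 3500 to 4000 bp. Single DLX3 peaks were inside in 30.2%, 46.1%, 64.5%, 75.6%, 77.5%, 78.3% and 75.0% of these 7 classes, more often than the stronger peak in all but the widest.

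Where the stronger peak crossed an edge, it did so by a median of 413 bp (quartiles 122 and 1135, highest 11320 bp) and kept a median of 73.4% of its own width inside. The weaker peak crossed by 459 bp (quartiles 133 and 1003 bp) and kept 57.7%. In 107 regions less than 50% of the stronger peak was on the mark, which is the same set as those with its midpoint outside. These regions hold only the flank of their strongest DLX3 peak.

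The 3 narrowest members were of this kind. Chromosome 10 held the narrowest, of 650 bp (102066311 to 102066960), chromosome 5 one of 739 bp (153764085 to 153764823), and chromosome 20 one of 756 bp (32754308 to 32755063). In all 3 both DLX3 peaks ran past the edges, and the stronger had its midpoint outside. Their H3K4me3 scores, 55.0, 54.9 and 50.3, lay near the bottom of the list, which began at 50.01.

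The scores of the 2 strongest DLX3 peaks were unequal, as ordering them by score makes certain to some degree. The stronger had a median of 191.4 (quartiles 123.5 and 311.0) and the weaker 78.3 (quartiles 60.0 and 114.0). Single DLX3 peaks had a median of 137.3, between these values. The ratio of stronger to weaker score had a median of 2.03 (quartiles 1.38 and 3.24). It was 2 or more in 436 regions (51.4%), 5 or more in 103 (12.1%) and 10 or more in 17 (2.00%). Across the 849 regions Spearman's rho between stronger and weaker score was 0.434; the peaks share a library, and the order itself sets a ceiling on the weaker score.

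**Figure D4:**
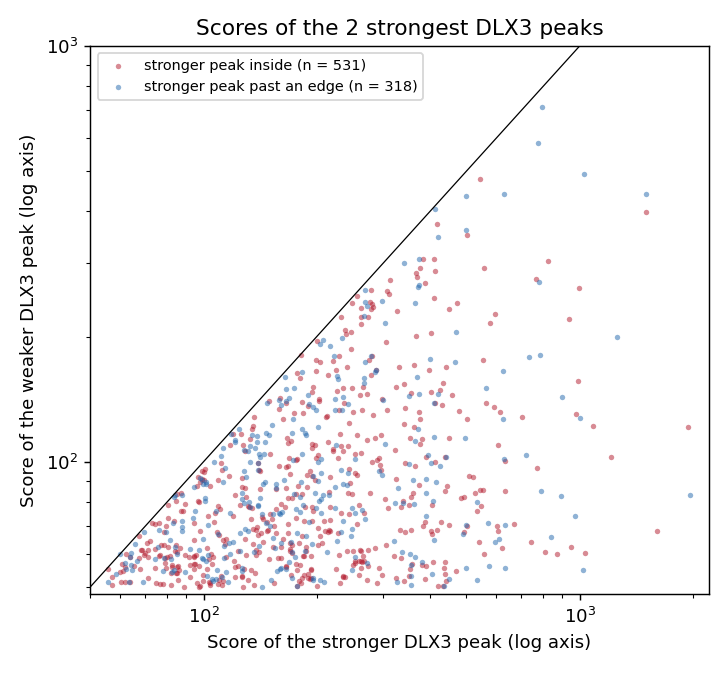
Score of the weaker against the stronger of the 2 strongest DLX3 peaks in each of the 849 regions, on log axes, with the line of equal scores; red are the 531 regions with the stronger peak inside the mark and blue the 318 where it runs past an edge. Both colours spread over the same range, and weaker scores crowd near the floor of 50.01.

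The 5 regions with the highest stronger scores were unlike each other in layout. On chromosome 10 (76197468 to 76201275) a DLX3 peak of 4536 bp scored 1969.5 and ran 1803 bp past the mark, beside a peak of 668 bp scoring 83.1. On chromosome 6 (116269400 to 116273018) a DLX3 peak of 2216 bp scored 1936 and sat 265.5 bp from the marked centre, with a neighbour of score 121.1 beginning 11 bp past its end and crossing the edge. On chromosome 6 (43671685 to 43675357) both peaks were inside, with scores of 1603 and 68.1, a ratio of 23.5. On chromosome 8 (46004995 to 46008432) a central peak scoring 1501 and a peak scoring 399.6 across the edge were 800 bp apart. The last, on chromosome 6 (135266758 to 135268926), had scores of 1498 and 441.5 and both peaks crossing the edges. The chromosome 8 region had an H3K4me3 score of 3100, and the other 4 had 90.5 to 358.7.

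The 5 regions whose weaker DLX3 peak scored highest mostly held DLX3 peaks that ran far past the mark. On chromosome 4 (58111660 to 58114983) DLX3 peaks of 5783 and 4464 bp scored 796.0 and 714.4, were 7 bp apart and ran 4525 and 2405 bp past the 2 edges. On chromosome 18 (72184936 to 72186857) scores of 774.5 and 583.5 stood 5 bp apart. On chromosome 13 (76302774 to 76304820) a DLX3 peak of 5882 bp scoring 1027 had only 1.70% of its width on the mark, and its neighbour scored 492.8. The other 2 were on chromosome 6, the region named above and one before it (135253897 to 135255868), where scores of 544.5 and 477.4 stood beside a further DLX3 peak of 56.3. In 4 of the 5 both of the strongest peaks crossed an edge. Their H3K4me3 scores, from 76.1 to 104.0, were all low.

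Regions with 3 or more DLX3 peaks numbered 23, with a median width of 3208 bp and a median H3K4me3 score of 349.7 (lowest 70.8, highest 3100). The strongest DLX3 peak was inside the mark in 15 of them and was not an outermost one in 9. In 10 every gap was under 200 bp. The only region with 4, on chromosome 3 (125862167 to 125865609), held all of them inside, with scores of 86.2, 114.0, 77.0 and 167.0 in order of position and gaps of 41, 46 and 168 bp. The strongest of these stood nearest to the higher-coordinate edge, at 0.617 of the distance from centre to edge, while the weakest was at the centre, at 0.00755.

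Next by summed score, after the chromosome 6 region with scores of 544.5 and 477.4, came 3 regions with 3 DLX3 peaks. On chromosome 1 (125913455 to 125916947) peaks scoring 412.3, 405.4 and 75.9 were 11 and 23 bp apart. On chromosome 9 (17535027 to 17536496) small peaks of 339 and 401 bp with scores of 91.0 and 150.1 lay inside, and a peak of 4660 bp scoring 562.0 ran 4117 bp past the edge. On chromosome 1 (82492992 to 82496819) the strongest, scoring 564.1, began at the first base of the mark, followed by peaks of 138.7 and 98.8.

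H3K4me3 scores were lower in these regions than in marked peaks of like width with 1 DLX3 peak. The score of the mark did not enter the rule, but it goes with width, so it was compared within 7 width classes. Medians in members and in marked peaks with 1 DLX3 peak were 66.6 and 73.1 under 1000 bp, 69.1 and 126.7 from 1000 to 1500 bp, and 114.5 and 862.2 from 1500 to 2000 bp. They were 296.2 and 1722 from 2000 to 2500 bp and 1139 and 2082 from 2500 to 3000 bp. In the widest classes they were 1458 and 2307, then 1909 and 2370.3. The members had the lower median in all 7 classes. In all, 618 of 849 members (72.8%, Wilson interval 69.7 to 75.7%) scored below the median of their class of marked peaks with 1 DLX3 peak, where 50% would mean no shift. Without regard to width the medians were 811.8 and 998.7, and 13.4% and 13.1% scored 3100 or more.

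**Figure D5:**
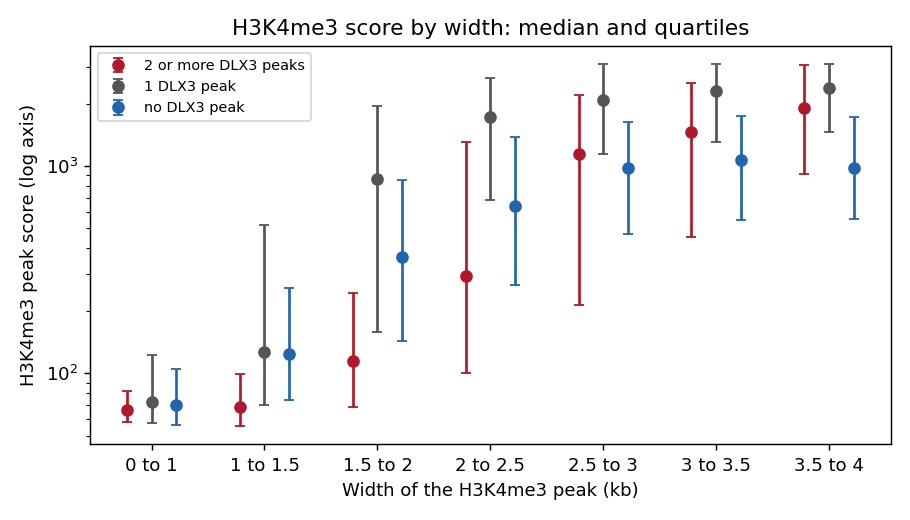
H3K4me3 peak score on a log axis by width of the H3K4me3 peak in kb, as median (point) and quartiles (bars), for marked peaks with 2 or more DLX3 peaks (red), 1 (grey) or none (blue). The red median lies below the grey in each of the 7 classes, and up to 2.5 kb it also lies below the blue, from 1.5 kb at 114.5 against 363.4 and 296.2 against 643.7.

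Low scores of the mark went together with DLX3 peaks that cross its edges. Regions with both of the strongest DLX3 peaks inside had a median H3K4me3 score of 1980.4 (quartiles 842.0 and 3100) and a median width of 3119 bp. With only the stronger inside the median score was 1077, with only the weaker inside 359.1, and with both crossing 104.0 (quartiles 64.8 and 239.5) at a median width of 2205 bp. The DLX3 scores did not follow this order, with medians of the stronger peak at 186.3, 201.6, 161.5 and 205.7.

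When scores were compared within width class and position, the shift was smaller. Position here means whether every DLX3 peak lay inside, which involves 2 or more peaks in a member and 1 in the comparison peaks. Comparison peaks with DLX3 past the edge also include the 1145 past both edges, a layout that no member had. Position was therefore matched only in part. Of the members, 526 (62.0%, Wilson interval 58.6 to 65.2%) scored below the median of marked peaks with 1 DLX3 peak of their width class and position. This was 182 of the 304 members with every DLX3 peak inside (59.9%) and 344 of the 545 others (63.1%). With every DLX3 peak inside, the widest difference was from 1500 to 2000 bp, where the median score was 443.5 in 22 members and 1469.5 in 2030 others, and 18 of the 22 (81.8%) lay below. From 2000 to 2500 bp it was 1352 in 43 members and 1954 in 2031 others. From 3500 to 4000 bp it was 2422 in 94 and 2507 in 476. With a DLX3 peak past the edge, the medians from 2000 to 2500 bp were 139.8 in 101 members and 475.3 in 656 others. In the narrowest class with a DLX3 peak past the edge the 12 members, at 66.6, were level with the others at 66.5. From 1000 to 1500 bp with every DLX3 peak inside, 2 members had 866.7 against 355.7.

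Classes of gap differed in the mark's width and score, while the share with the stronger peak inside was alike in them. These classes were not matched for width, with which both the score and that share rise. Whether the gap goes with either at equal width was not tested. Among the regions with 2 DLX3 peaks, those with gaps under 100 bp (329) had a median marked width of 2616 bp and a median H3K4me3 score of 532.5. Those with gaps of 500 bp or more (109) had 3247 bp and 1438. The share with the stronger peak inside was 62.9%, 62.3%, 61.4% and 63.3% in the 4 classes of gap from short to long. The DLX3 peaks covered a median of 81.3% of the marked peak over all members, and 65.1% in the class of widest gaps. A gap is itself an uncovered part of the marked peak, so lower coverage at wider gaps is in part given by the classes. A single DLX3 peak covered a median of 73.6%. This was not compared at equal width, and the rule asks for 2 or more DLX3 peaks in members only.

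Members had a neighbouring H3K4me3 peak nearby more often than marked peaks with 1 DLX3 peak. Another H3K4me3 peak lay within 1000 bp of 197 members (23.2%, Wilson interval 20.5 to 26.2%) and of 13.8% of the 13560 others. In 65 members (7.66%) a DLX3 peak reached into a second H3K4me3 peak, against 1.70% of the others. A member has 2 or more DLX3 peaks that could do so and the others have 1, so the rule itself can raise this share. Neither comparison was made within width classes. The median number of further DLX3 peaks with midpoints within 50 kb on either side was 7 around members and 5 around the others. It was the same for both under 1000 bp of width, at 5, and from 3000 to 4000 bp, at 7 and 8 in its classes. From 1000 to 3000 bp it was the higher around members, at 9, 7, 7 and 7 against 6, 5, 5 and 6.

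The regions were spread over all chromosomes. Their share of DLX3-bearing marked peaks under 4000 bp ran from 3.65% on chromosome 14 (19 regions, Wilson interval 2.35 to 5.63%) to 7.43% on chromosome 5 (77 regions, 5.99 to 9.19%). Chromosome X, with 16 regions and 5.14% (3.19 to 8.19%), lay within this range. Within 10000 bp of another member lay 36 of the 849 (4.24%). This share was not set beside a background, so it does not show whether members were spaced closely or widely.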

How the data were processed

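DLX3 and H3K4me3 ChIP-seq peaks of rat enamel organ were analysed, from 1 library each. The tools named are MACS 1.4.2, HOMER and Bowtie 1.1.2, on build rn5, per the submitters' processing notes; roles, cutoffs and the use of the input are not given in the sources used here. The deposited lists give positions and a score per peak, the authors' own value with no unit stated, used only to rank and describe peaks within a list. A score of exactly 3100 is shared by many H3K4me3 peaks, and some score higher, up to 3233, so order among the strongest peaks was not read from it. Depth is unknown.

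Overlap was at least 1 bp, computed with pandas 2.3.3 and numpy 2.4.6 under Python 3.11.15; bedtools 2.31.1 gave the same 849 regions. The script was tested on simulated lists. Starts are counted from 1. Midpoints stand for peak centres, since no summits are listed. Wilson intervals (scipy 1.17.1, 95%) cover counting error only, and neighbouring peaks are not independent.

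The regions, comparisons and alternatives were chosen with earlier results of these data known. Regions named are those with the most DLX3 peaks, the highest stronger or weaker score and the widest or narrowest gap (5 each), and those narrowest, widest and just past the width limit (3 each). The classes of gap and midpoint distance, the surroundings, the chromosomes and the pairing of width class with position were added after seeing the data. The gene and promoter tables in hand are of build GRCr8, so genes, sequences and motifs were not analysed here.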

Additional observations from a re-analysis of the deposited data

How the results depend on the processing

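No paired analysis was possible because each antibody has 1 library, which also bars leaving any out. Of 44 values under the alternatives, 24 stayed within the interval of the reported value (for the number of regions, within 1.5 times) and 20 moved. The number of regions, 849, was 491 with a width limit of 3000 bp, 303 after joining DLX3 peaks within 200 bp, and 316 and 499 with the upper 50% of DLX3 or of H3K4me3 peaks by score. The median gap of 136 bp became 118.5 bp at 3000 bp, 395 bp after joining and 154.5 bp for the upper 50% of H3K4me3 peaks. Fewer peaks or a lower limit give fewer regions by construction, and joining removes all gaps up to 200 bp. The stronger DLX3 peak lay inside in 53.6% and 65.8% with width limits of 3000 and 5000 bp, 74.2% with at least 50% of each DLX3 peak on the mark, 80.6% for the upper 50% of H3K4me3 peaks and 58.5% when the wider peak was taken as the stronger. It was the more central in 57.0% for the upper 50% of DLX3 peaks, and the wider peak was in 64.8%. Opposite sides were found in 96.9% with at least 50% on the mark and 95.3% after joining. The share of regions with a lower H3K4me3 score than their class was 78.4% and 68.8% with limits of 3000 and 5000 bp, 67.6% with at least 50% on the mark and 64.1% for the upper 50% of H3K4me3 peaks. For the remaining movements the cause was not tested. These shares stayed above 50%, but the interval of the 53.6% (49.1 to 57.9%) includes it. For the shares inside, more central and on opposite sides, 50% is no reference value. The more central share goes along with peak width. Single DLX3 peaks were inside in 63.0% of marked peaks under 4000 bp, and geometry makes opposite sides frequent. Of the 29 regions named as members, 7 remained after joining DLX3 peaks and 13 with at least 50% on the mark.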
